A study of Homo sapiens with 18 samples.

Results

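The genes described here belong to bone morphogenetic protein (BMP) signalling and were grouped with SMAD6, whose mRNA was low after poly(I:C) in these cells. They are 10 of the 62754 genes listed, found by symbol: the inhibitory SMADs SMAD6 and SMAD7, the receptor-activated SMAD1, the target genes ID1, ID2 and ID3, the receptors BMPR2 and ACVRL1, the co-receptor ENG and the ligand BMP4. SMAD6 was chosen for its fall after poly(I:C), so its values, which make up that fall at both times, are a description and carry no test. The other 9 were chosen by role, but with earlier results of these data known. The question asked of them was whether they fell with SMAD6. Of the 10, 9 passed the filter on low counts and BMP4 did not.

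EA.hy926 is a human endothelial line made by fusing umbilical vein endothelial cells with the lung carcinoma line A549. The stimulus poly(I:C) is an artificial double-stranded RNA sensed by TLR3. Cells received transfection reagent alone (Mock), a non-targeting siRNA (siNT) or siRNA against ELMO1 (siELMO1), each siRNA at 10 nM. In every condition the culture medium held 10% fetal bovine serum, and cells were moved to low serum overnight before stimulation. RNA was taken either 48 h after transfection (0 h) or once poly(I:C) at 1 μg/ml had been present for 24 h more (24 h). Each of the 6 conditions had 3 libraries, given as biological replicates of the 1 line, 18 in all. No condition was kept for 24 h without poly(I:C), so the time in culture and poly(I:C) cannot be told apart in any comparison of 24 h with 0 h. Mock had reagent but no siRNA, so siNT against Mock compares the non-targeting siRNA used with no siRNA. Effects of its sequence and of any siRNA duplex cannot be told apart in that comparison. The paper reports massive cell death in siNT cultures after poly(I:C), and less of it in Mock and siELMO1. The part of that death in siNT levels after poly(I:C), and in comparisons that use them, was not tested.

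BMP ligands bind complexes of type II receptors such as BMPR2 and type I receptors such as ACVRL1 (ALK1), with endoglin (ENG) as a co-receptor on endothelial cells. The type I receptor phosphorylates SMAD1, SMAD5 and SMAD9, which enter the nucleus with SMAD4 and raise transcription of the ID genes and of SMAD6 and SMAD7. SMAD6 and SMAD7 then act back on the receptors and SMADs as inhibitors, SMAD6 mainly on the BMP branch and SMAD7 on both the BMP and TGF-β branches. mRNA levels show neither phosphorylation nor protein.

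The libraries held between 40.4 and 73.9 M estimated counts. Levels are given as CPM, that is counts per 1 M counts of the library after TMM adjustment. Fold changes are log2 values with their standard error (SE) from 1 edgeR quasi-likelihood model of all 18 libraries, and adjusted p is the Benjamini-Hochberg value over the 15167 genes tested. A gene was called at an adjusted p under 0.05. ELMO1 was at 0.340 ± 0.0687 CPM (SD, n = 3) in siELMO1 at 0 h and at 3.02 ± 0.0288 in Mock. The interferon-induced IFIT1 was at 7.57 ± 0.943 CPM in Mock at 0 h and at 1127 ± 55.4 at 24 h. ISG15 was at 12.5 ± 0.83 and 762 ± 36.9 CPM, and CXCL10 had no count at 0 h and was at 29.3 ± 5.36 CPM in Mock at 24 h. All 8 endothelial markers were over 1 CPM in every condition. Their summed level was 1699 to 2068 CPM in the siELMO1 libraries and 989 to 1297 in the others. CDH5 held much of it, with 777 CPM in siELMO1 at 0 h. PECAM1 averaged less in siELMO1 than in siNT, 225 against 314 CPM at 0 h and 188 against 231 CPM at 24 h. The other markers of this list averaged more in siELMO1 than in siNT at both times. Of 6 lung epithelial markers, the keratins KRT8 and KRT18 averaged 197 to 480 CPM and 269 to 540 CPM over the conditions, EPCAM 0.274 to 1.07 CPM, and CDH1, SFTPC and NKX2-1 were at 0. Their summed level was 766 to 818 CPM in the Mock and siNT libraries and 977 to 1088 CPM in those of siELMO1 at 0 h, and at 24 h it was 484 to 546 CPM and 534 to 628 CPM. The 3 fibroblast and mural markers summed to at most 1.66 CPM, and PTPRC, a leukocyte gene, was at most at 0.497 CPM. The siELMO1 0 h libraries were uneven, with 1.86% mitochondrial counts in replicate 1 and 4.02% and 3.95% in replicates 2 and 3, against 1.31% to 2.42% in the other conditions. The part of these marker and mitochondrial shares in the results was not tested.

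SMAD6 was low in every library taken after poly(I:C), and SMAD7 was the 1 other member that fell by more than 1 log2 unit in each transfection. SMAD6 (chr15:66702236-66782849, plus strand, GRCh38) encodes the inhibitor that binds activated type I receptors and SMAD1. In Mock its level was 13.7, 13.0 and 15.7 CPM in the 3 libraries at 0 h and 1.39, 1.59 and 1.61 CPM at 24 h. In siNT it was 19.4, 17.8 and 17.6 CPM at 0 h and 6.5, 6.92 and 6.27 CPM at 24 h. In siELMO1 it was 18.7, 16.4 and 15.1 CPM at 0 h and 4.02, 4.26 and 3.98 CPM at 24 h. Every 24 h library lay below every 0 h library, and the 24 h libraries of the 3 transfections did not overlap each other. The fitted change was −3.20 ± 0.11 in Mock, −1.48 ± 0.10 in siNT and −2.04 ± 0.10 in siELMO1 (log2 ± SE), a level 9.20-fold lower in Mock. The values behind the Mock 24 h mean are small, from 73 to 96 counts per library. In bulk RNA, fewer cells with an mRNA and less of it per cell cannot be told apart.

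SMAD7 (chr18:48919853-48950965, minus strand) encodes the inhibitory SMAD shared by the BMP and TGF-β branches. Its level in Mock was 13.0, 13.3 and 10.5 CPM at 0 h and 2.57, 2.50 and 2.81 CPM at 24 h. In siNT the libraries gave 19.0, 20.7 and 18.1 CPM at 0 h and 9.88, 9.03 and 8.11 CPM at 24 h. In siELMO1 they gave 22.1, 21.3 and 17.7 CPM at 0 h and 4.90, 5.69 and 6.70 CPM at 24 h. As for SMAD6, the lowest 24 h level was in Mock and the highest in siNT, and no 24 h library reached a 0 h library. SMAD7 fell by 2.22 ± 0.13 in Mock (log2 ± SE, adjusted p = 9.0e-11), by 1.10 ± 0.12 in siNT (adjusted p = 5.4e-07) and by 1.82 ± 0.12 in siELMO1 (adjusted p = 9.2e-10). Over the 18 libraries, the log2 CPM of SMAD7 had a Pearson r of 0.977 with that of SMAD6, which placed it 7th of 10812 genes with a mean of at least 5 CPM. The same libraries and the same 0 h to 24 h step lie behind every such value, so it is a description. Among the 9 libraries of 1 time the r of SMAD7 with SMAD6 was 0.690 at 0 h and 0.982 at 24 h.

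The 5 genes most like SMAD6 by this measure were FSCN1 (r = 0.987), which encodes the actin-bundling protein fascin, NEK6 (0.987) and PRKCA (0.987), which encode a mitotic kinase and protein kinase C alpha, USP46 (0.983), a deubiquitinase, and SNX30 (0.982), a sorting nexin. PRKCA, for example, averaged 315 CPM (Mock), 392 CPM (siNT) and 374 CPM (siELMO1) at 0 h, and at 24 h 59.8, 160 and 109 CPM. The other members ranked far lower, ENG at 1166 (r = 0.751), ID1 at 3933 (r = 0.255), BMPR2 at 4927 (r = 0.0746) and ACVRL1 at 8274 (r = −0.532). SMAD1 (r = −0.677), ID2 (r = −0.704) and ID3 (r = −0.779) ran against SMAD6 across the 18 libraries. Among the 9 libraries at 0 h the r of SMAD1 was 0.344, of ID2 0.367 and of ID3 −0.0913, and among those at 24 h they were −0.436, −0.814 and −0.513. The sign for SMAD1 and ID2 was thus not the same at 0 h.

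**Figure D1:**
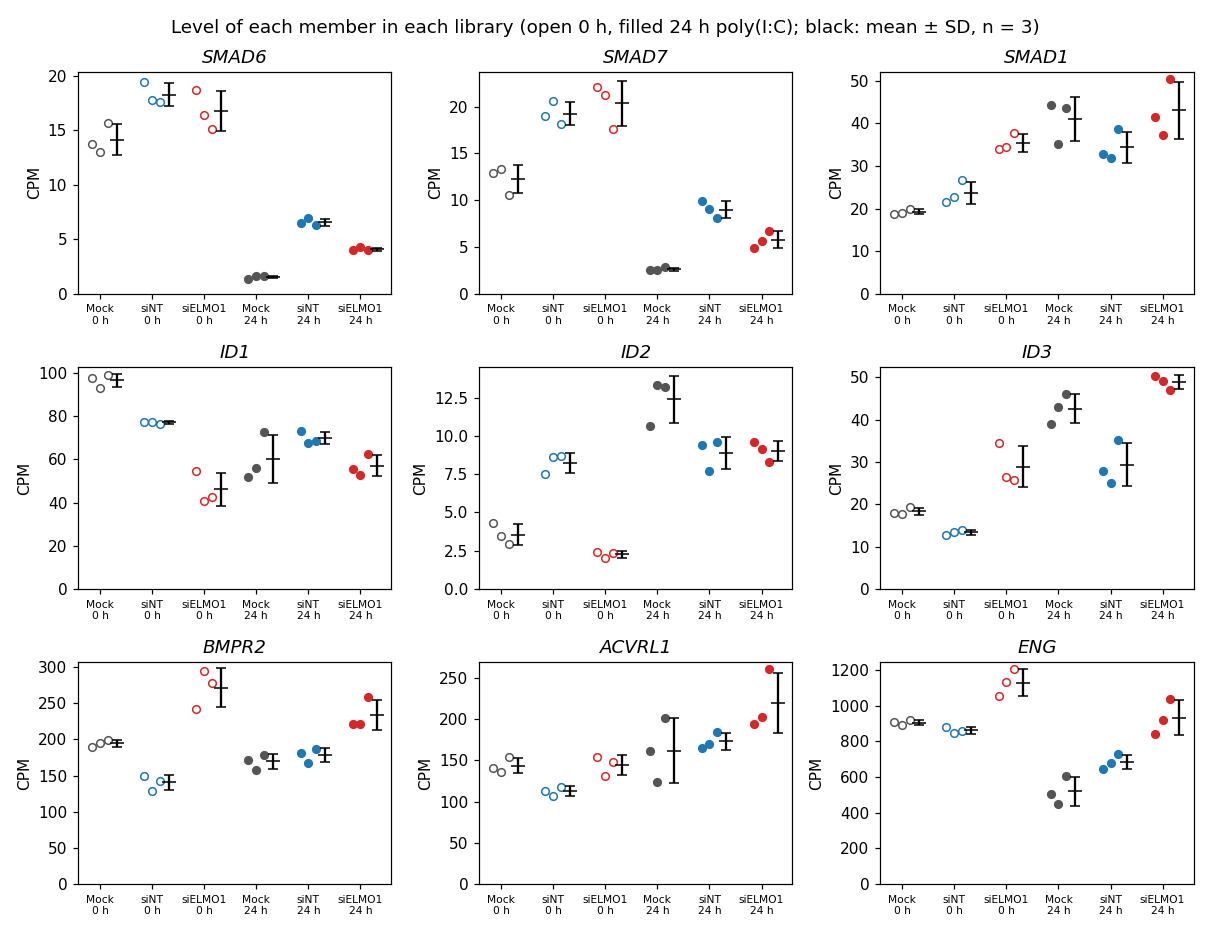
Level in CPM (vertical axis, starting at 0) of the 9 tested members in each library of the 6 conditions (horizontal axis); open points are 0 h, filled points 24 h of poly(I:C), and black marks give the mean ± SD of 3 libraries. SMAD6 and SMAD7 stood lower in all 9 libraries of 24 h than in all 9 of 0 h, while ID3 rose within each transfection.

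As SMAD7 was the member most like SMAD6 by r over the 18 libraries, the 250 bases before their start sites are shown, from RefSeq (GRCh38.p14), 5′ to 3′ on the strand of the gene. Entries were found for 9 of the 10 members, all but ACVRL1, and the start nearest to the best-supported coding transcript was taken. Capitals mark 3 motifs searched on both strands. They are GTCTAGAC, the palindromic SMAD binding element, CAGAC, a shorter SMAD binding word also read as GTCTG, and GGCGCC. The last is a palindrome bound by SMAD1 and SMAD5. GTCTAGAC does not contain CAGAC, though both hold AGAC. No match of one overlaps a match of another in these windows.
SMAD6 (chr15:66701986-66702235, plus strand): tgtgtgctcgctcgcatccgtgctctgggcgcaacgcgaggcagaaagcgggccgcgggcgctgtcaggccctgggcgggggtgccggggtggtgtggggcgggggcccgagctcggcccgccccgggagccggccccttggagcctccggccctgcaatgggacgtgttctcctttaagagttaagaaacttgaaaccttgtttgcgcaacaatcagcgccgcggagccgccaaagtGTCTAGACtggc
SMAD7 (chr18:48950966-48951215, minus strand): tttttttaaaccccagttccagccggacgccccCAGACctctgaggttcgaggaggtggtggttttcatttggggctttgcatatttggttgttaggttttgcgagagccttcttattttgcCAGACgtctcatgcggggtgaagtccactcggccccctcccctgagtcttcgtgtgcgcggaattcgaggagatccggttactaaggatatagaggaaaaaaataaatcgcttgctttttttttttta

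The SMAD6 window holds GTCTAGAC once, with its first base at position −12 from the start, and was the only one of the 9 members' windows to hold it. That word is present in 64 of the 35116 windows of all genes in the table (0.182%). The SMAD7 window holds CAGAC at −217 and −128 and neither palindrome. CAGAC or its reverse was present in 4 of the 9 members' windows (SMAD7, ID3, BMPR2 and BMP4) and in 38.0% of all windows, and GGCGCC in 2 of the 9 (BMPR2 and BMP4) and in 16.4% of all. A match gives the letters present and does not show that a protein binds there.

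SMAD6 counts came from a pair of transcript models. The coding transcript SMAD6-201 (3828 bases, 4 exons) held 48.2% of its counts, and SMAD6-205, a model of 1 exon with no defined coding sequence (5198 bases, chr15:66703077-66708274), held 51.3%. SMAD6-205 shares 999 bases with exons of SMAD6-201 and otherwise reaches into its intron, so the authors' estimate had to divide reads between them. SMAD6-201 alone averaged 6.18 ± 0.822, 9.37 ± 1.11 and 8.35 ± 0.354 CPM (SD, n = 3) in the 0 h libraries of Mock, siNT and siELMO1, and 0.618 ± 0.156, 2.97 ± 0.217 and 2.20 ± 0.317 CPM at 24 h. The ratio of these means, 24 h over 0 h, was −3.32, −1.66 and −1.92 on the log2 scale, and that of SMAD6-205 was −3.11, −1.31 and −2.15. Both models were lower after poly(I:C) in each transfection.

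**Figure D2:**
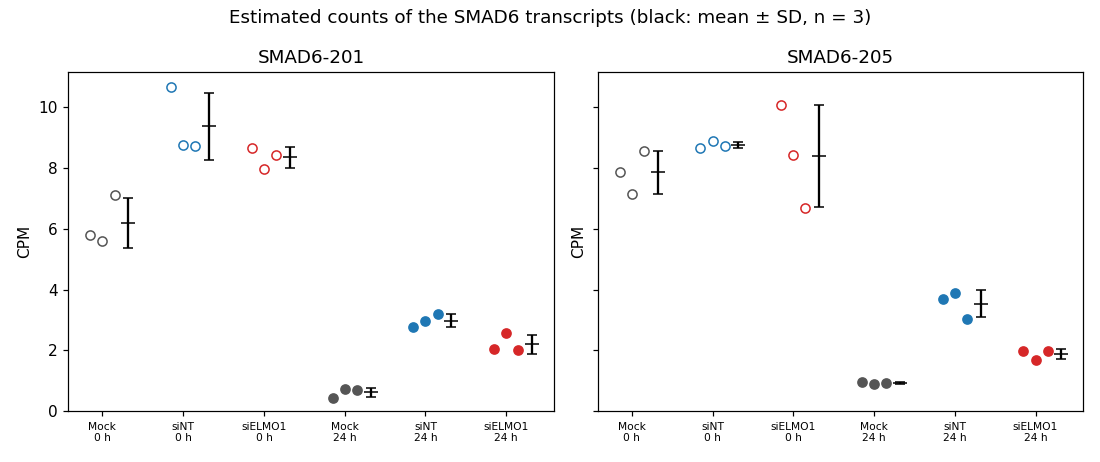
Estimated counts in CPM (vertical axis, starting at 0) of SMAD6-201, the coding transcript, and SMAD6-205, the model of 1 exon, in each library of the 6 conditions; black marks give the mean ± SD of 3 libraries. In Mock at 24 h the coding transcript averaged 0.618 CPM and the other 0.913 CPM, the lowest of the 6 conditions for each.

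The ID genes, which encode inhibitors of DNA binding by basic helix-loop-helix factors and are the best-known BMP targets, did not follow SMAD6. ID3 rose in all 3 transfections, ID2 rose in Mock and siELMO1, and ID1 was called lower in Mock, higher in siELMO1 and neither in siNT. ID1 (chr20:31605283-31606515, plus strand) was at 97.5, 93.1 and 99.2 CPM in Mock at 0 h against 52.0, 55.9 and 72.8 CPM at 24 h, without overlap, a fall of 0.68 ± 0.11 (log2 ± SE, adjusted p = 3.7e-05). In siNT it was 77.6, 77.5 and 76.4 CPM at 0 h and 73.1, 67.6 and 68.7 CPM at 24 h. That difference of −0.14 ± 0.11 was not called (95% interval −0.38 to 0.09, adjusted p = 0.28). All 24 h libraries of siNT lay below those at 0 h, and in a fit of only these 6 libraries ID1 was called lower (−0.16, adjusted p = 0.013). In siELMO1 it was 54.8, 40.8 and 42.6 CPM at 0 h and 55.7, 52.9 and 62.4 CPM at 24 h, ranges that overlapped, with a difference of 0.30 ± 0.11 (adjusted p = 0.028). The siELMO1 call ended without 0 h replicate 2 or 3 or 24 h replicate 3 (adjusted p from 0.108 to 0.131), with scaling by library totals (adjusted p = 0.101) or by the upper quartile (adjusted p = 0.0785) and in a fit of only the conditions compared (adjusted p = 0.0639).

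ID2 (chr2:8678845-8684461, plus strand) had the widest range of the ID genes between conditions. It was at 4.28, 3.45 and 2.92 CPM in Mock at 0 h against 10.6, 13.3 and 13.2 CPM at 24 h, a rise of 1.81 ± 0.14 (adjusted p = 4.5e-09). In siELMO1, 0 h libraries at 2.44, 2.01 and 2.38 CPM were followed by 9.59, 9.19 and 8.34 CPM, a rise of 1.98 ± 0.15 (adjusted p = 3.0e-09). In siNT the libraries already stood at 7.49, 8.60 and 8.67 CPM at 0 h and gave 9.40, 7.68 and 9.61 CPM at 24 h. Those ranges overlapped, and the difference of 0.11 ± 0.14 was not called (95% interval −0.19 to 0.41, adjusted p = 0.52). ID2 overlaps exons of ID2-AS1 on the other strand, and whether the counting used strand is not given in the sources used here.

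ID3 (chr1:23557926-23559501, minus strand) was at 17.8, 17.7 and 19.3 CPM in Mock at 0 h against 39.0, 42.9 and 46.0 CPM at 24 h. In siNT it was at 12.7, 13.5 and 13.9 CPM at 0 h against 27.8, 25.1 and 35.1 CPM at 24 h. The siELMO1 libraries gave 34.5, 26.5 and 25.7 CPM before and 50.4, 49.2 and 47.0 CPM after poly(I:C). The 24 h libraries stood above the 0 h libraries of the same transfection each time. The rises were 1.22 ± 0.11 in Mock (adjusted p = 5.1e-08), 1.13 ± 0.12 in siNT (adjusted p = 2.4e-07) and 0.75 ± 0.11 in siELMO1 (adjusted p = 1.9e-05). Within a library the count of ID1 was 5.28 ± 0.169 times that of ID3 in Mock at 0 h and 1.41 ± 0.154 times at 24 h (SD, n = 3).

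The same windows are shown for ID1 and ID3, as target genes that differed from SMAD6 and from each other in direction in Mock.
ID1 (chr20:31605039-31605288, plus strand): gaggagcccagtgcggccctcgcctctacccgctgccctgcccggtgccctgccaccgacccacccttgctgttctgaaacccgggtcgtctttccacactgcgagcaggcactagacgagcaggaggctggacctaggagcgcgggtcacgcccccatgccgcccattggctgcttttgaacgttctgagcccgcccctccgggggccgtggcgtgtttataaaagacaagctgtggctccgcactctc
ID3 (chr1:23559502-23559751, minus strand): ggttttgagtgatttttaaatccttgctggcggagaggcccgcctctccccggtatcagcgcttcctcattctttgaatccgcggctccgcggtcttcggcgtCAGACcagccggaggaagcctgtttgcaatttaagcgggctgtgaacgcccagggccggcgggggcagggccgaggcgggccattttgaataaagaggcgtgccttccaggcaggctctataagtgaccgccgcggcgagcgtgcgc

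Neither window holds GTCTAGAC or GGCGCC, and only that of ID3 holds CAGAC, at −147. No match says only that these letters are not in these 250 bases.

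SMAD1 (chr4:145481194-145559176, plus strand), the receptor-activated SMAD that carries the BMP signal, moved against its inhibitors. In Mock it was at 18.7, 19.1 and 19.9 CPM at 0 h against 44.2, 35.1 and 43.7 CPM at 24 h, a rise of 1.09 ± 0.11 (adjusted p = 2.0e-07). In siNT it was at 21.6, 22.6 and 26.6 CPM at 0 h against 32.8, 31.8 and 38.6 CPM at 24 h, a rise of 0.54 ± 0.11 (adjusted p = 5.9e-04). The siELMO1 libraries gave 33.9, 34.4 and 37.8 CPM before and 41.4, 37.2 and 50.5 CPM after, where the ranges overlapped and the difference was 0.28 ± 0.11 (adjusted p = 0.041). The siELMO1 call ended without 0 h replicate 1 or 2 or 24 h replicate 1 or 3 (adjusted p from 0.0546 to 0.262), and with limma-voom, both other scalings and only the conditions compared (adjusted p = 0.0502, 0.109, 0.0987 and 0.0645). Within a library the count of SMAD6 was 0.734 ± 0.0545 times that of SMAD1 in Mock at 0 h and 0.0379 ± 0.00701 times at 24 h. SMAD1-AS1 overlaps exons of SMAD1 on the other strand. Genes without a symbol overlap exons of ENG and BMP4 on the other strand and exons of BMPR2 on its own strand.

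The receptors changed in no common direction. BMPR2 (chr2:202376327-202567751, plus strand), the type II receptor whose mutations cause heritable pulmonary arterial hypertension, was at 189, 195 and 200 CPM in Mock at 0 h against 171, 158 and 179 CPM at 24 h, a fall of 0.20 ± 0.08 (adjusted p = 0.036). That call ended without 0 h replicate 3 (adjusted p = 0.0502) or 24 h replicate 2 (adjusted p = 0.146). In siNT BMPR2 was at 150, 129 and 143 CPM at 0 h against 181, 168 and 187 CPM at 24 h, a rise of 0.35 ± 0.08 (adjusted p = 1.2e-03). The siELMO1 libraries gave 242, 295 and 278 CPM before and 221, 222 and 258 CPM after, overlapping ranges with a difference of −0.21 ± 0.08 (adjusted p = 0.027). The siELMO1 call ended without 0 h replicate 2 or 3 or 24 h replicate 1 or 2 (adjusted p from 0.0731 to 0.141), with no filter (adjusted p = 0.0758) and with only the conditions compared (adjusted p = 0.0838).

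ACVRL1 (chr12:51906908-51923361, plus strand), the endothelial type I receptor ALK1, was at 141, 136 and 154 CPM in Mock at 0 h against 161, 123 and 201 CPM at 24 h. The Mock difference of 0.17 ± 0.13 was not called (95% interval −0.12 to 0.46, adjusted p = 0.27), but was without 24 h replicate 2, the lowest library (0.34, adjusted p = 0.019). In siNT ACVRL1 was at 113, 106 and 118 CPM at 0 h against 164, 170 and 184 CPM at 24 h, a rise of 0.62 ± 0.13 (adjusted p = 7.8e-04). The siELMO1 libraries gave 155, 131 and 148 CPM before and 194, 203 and 261 CPM after, a rise of 0.60 ± 0.13 (adjusted p = 9.6e-04).

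ENG (chr9:127815013-127854658, minus strand), the endothelial co-receptor endoglin, was the member outside the inhibitory SMADs that fell in all 3 transfections, by less than SMAD7 in each. It was at 909, 889 and 918 CPM in Mock at 0 h against 502, 448 and 606 CPM at 24 h, a fall of 0.80 ± 0.09 (adjusted p = 4.8e-07). In siNT it was at 882, 847 and 856 CPM at 0 h against 647, 678 and 727 CPM at 24 h, a fall of 0.33 ± 0.09 (adjusted p = 4.3e-03). In siELMO1 the libraries gave 1053, 1130 and 1205 CPM at 0 h and 840, 919.5 and 1036 CPM at 24 h. They did not overlap, and the fall of 0.28 ± 0.09 (adjusted p = 0.014) was not called without 0 h replicate 3 (adjusted p = 0.0634) or 24 h replicate 1 (adjusted p = 0.0811). Counts of ENG were divided between the coding transcripts ENG-202 and ENG-201, which averaged 503 and 393 CPM in Mock at 0 h and 280 and 218 CPM at 24 h.

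BMP4, a BMP ligand, was near the limit of detection. It had 6, 7 and 6 counts in Mock at 0 h, 0, 0 and 3 in siNT and 17, 0 and 15 in siELMO1, and no count in any of the 9 libraries at 24 h. The upper limit behind a 0 was set at 3 counts, or 0.0384 to 0.0754 CPM depending on the library, for counting error only. Library totals were above the paired-end reads that the paper gives per sample. Counts are therefore not independent fragments, and this limit may be too low. BMP4 was not tested and no fold is given.

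Among the 8 members other than SMAD6 that were tested, 3 were called higher and 4 lower after poly(I:C) in Mock, where 30.7% of all genes tested were called higher and 29.6% lower. In siNT 4 were called higher and 2 lower, with 28.6% and 25.2% of all genes, and in siELMO1 5 higher and 3 lower, with 28.0% and 26.9%. The median change of the 8 was −0.01, 0.23 and 0.29 log2 units in Mock, siNT and siELMO1. That of all genes was 0.01 in Mock and siNT and −3.99e-05 in siELMO1. SMAD7 and ENG were called lower and ID3 and SMAD1 higher in each of the 3 transfections. These 3 contrasts use separate libraries for each transfection. With siELMO1 at 0 h held by replicate 1 alone, SMAD7 (−1.95), ID2 (1.89) and ID3 (0.50) were still called in siELMO1, and SMAD1, ID1, BMPR2, ACVRL1 and ENG were not (adjusted p from 0.053 to 0.79).

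**Figure D3:**
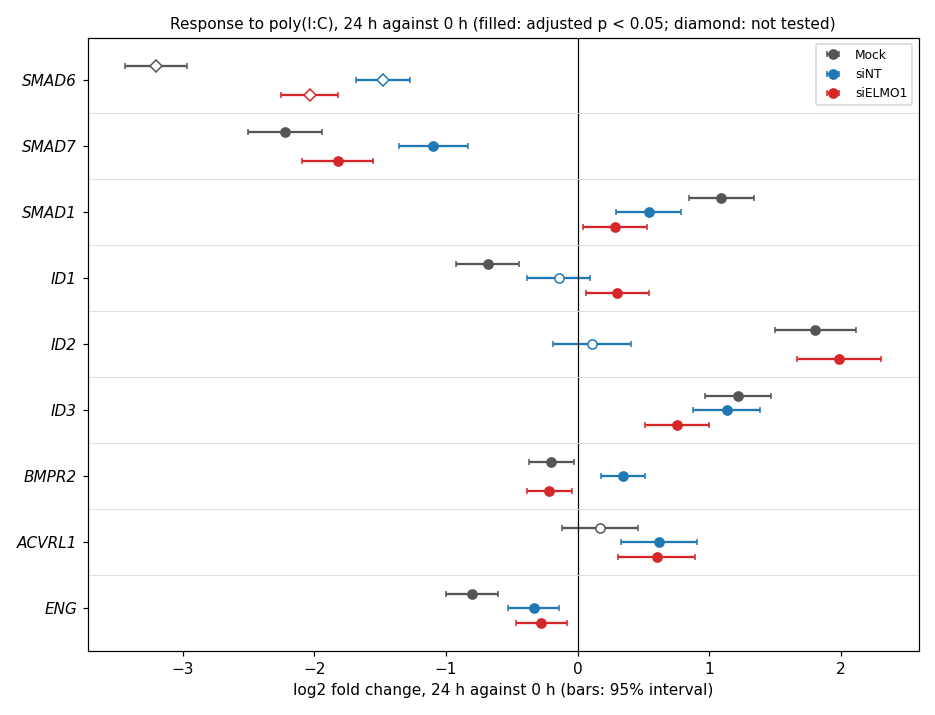
Response to poly(I:C) as log2 fold change, 24 h against 0 h (horizontal axis), of 9 members (vertical axis) in Mock, siNT and siELMO1. Bars are 95% intervals and filled points passed an adjusted p under 0.05. SMAD6 (diamonds) was not tested, and its bars are a description only. SMAD6 and SMAD7 lay between −3.20 and −1.10 in all 3 transfections, and ID3 between 0.75 and 1.22.

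Whether the responses differed between transfections was tested as the difference of the log2 changes, which is positive where the first named response is higher. SMAD7 fell less in siNT than in Mock, by 1.13 ± 0.18 (adjusted p = 9.5e-05), and further in siELMO1 than in siNT (−0.73 ± 0.17, adjusted p = 2.9e-03). For SMAD6 the same differences, not tested, were 1.72 ± 0.14 and −0.56 ± 0.13. ID2 responded less in siNT than in Mock (−1.70 ± 0.19, adjusted p = 4.1e-06) and more in siELMO1 than in siNT (1.87 ± 0.20, adjusted p = 1.1e-06). The ID1 response was higher in siELMO1 than in Mock by 0.98 ± 0.16 (adjusted p = 1.5e-04) and that of ENG by 0.53 ± 0.13 (adjusted p = 4.6e-03). The SMAD1 response was lower in siELMO1 than in Mock (−0.81 ± 0.16, adjusted p = 1.0e-03). Whether cell death in the siNT cultures had a part in the differences that involve siNT was not tested.

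Of the 8 members tested for siNT minus Mock, 4 were called higher and 2 lower, where 15.0% and 16.0% of all genes were. ACVRL1, at 0.45 (adjusted p = 0.082), was not among them, but was called with the replicate number as a block (0.46, adjusted p = 0.015), with library totals (0.53, adjusted p = 0.047) and without Mock 24 h replicate 3 (adjusted p = 7.3e-03). Of these 4 conditions, only the 24 h libraries of siNT and Mock correlated over 0.1 in every pair of the same number. The labels do not give a pairing. For siELMO1 minus Mock 2 were higher and 2 lower, against 13.8% and 14.6% of all genes, and for siELMO1 minus siNT again 2 and 2, against 16.7% and 17.8%. Other values not called here were called without 1 library: for siELMO1 minus Mock, SMAD7 without Mock 0 h replicate 3 or siELMO1 24 h replicate 1 (adjusted p from 0.0388 to 0.0440) and ACVRL1 without Mock 24 h replicate 3 (adjusted p = 0.0103), and for siELMO1 minus siNT, ID3 without siELMO1 0 h replicate 3 or siNT 24 h replicate 2 (adjusted p from 0.0275 to 0.0413). The Mock libraries serve in the first and the second of these differences, and the siNT libraries in the first and the third.

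Before poly(I:C), SMAD7 was not called between siELMO1 and siNT, while the other 7 members tested were. SMAD7 was higher in siNT than in Mock at 0 h by 0.65 ± 0.12 (adjusted p = 1.7e-04), and the difference of SMAD6, not tested, was 0.37 ± 0.09, both with no overlap of libraries. In siELMO1 against siNT at 0 h SMAD7 was at 0.08 ± 0.12 (95% interval −0.18 to 0.33, adjusted p = 0.58) and SMAD6, not tested, at −0.12 ± 0.09. The target genes and receptors did differ there: ID2 was lower in siELMO1 at −1.85 ± 0.15 (adjusted p = 4.8e-09) and ID1 stood at −0.74 ± 0.11 (adjusted p = 1.4e-05). ID3 was higher by 1.11 ± 0.12 (adjusted p = 1.8e-07), BMPR2 by 0.95 ± 0.08 (adjusted p = 8.9e-09), SMAD1 by 0.58 ± 0.11 (adjusted p = 2.3e-04) and ENG by 0.39 ± 0.09 (adjusted p = 9.7e-04). ACVRL1 was higher by 0.36 ± 0.13 (adjusted p = 0.025), a call that ended without siNT replicate 1 or 2 or siELMO1 replicate 1 or 3 (adjusted p from 0.052 to 0.0809) and with no filter (adjusted p = 0.0543). With siELMO1 at 0 h held by replicate 1 alone, the library with 1.86% mitochondrial counts, ID2 (−1.75), ID1 (−0.49), ID3 (1.37), BMPR2 (0.79) and SMAD1 (0.53) were still called, and ENG (0.30, adjusted p = 0.059) and ACVRL1 (0.47, adjusted p = 0.052) were not. Without replicate 1 the same members were at −1.91, −0.89, 0.96, 1.03 and 0.61, and ENG at 0.44 (adjusted p = 7.6e-04).

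At 0 h the siELMO1 cells held ID1 and ID3 at levels that differed from both controls in opposite directions. Against Mock, ID1 was at −1.07 ± 0.11 (adjusted p = 3.3e-07) and ID3 at 0.66 ± 0.11 (adjusted p = 1.1e-04), and the count of ID1 was 1.60 ± 0.0595 times that of ID3 in siELMO1, 5.28 ± 0.169 times in Mock and 5.77 ± 0.302 times in siNT (SD, n = 3). ID2 was higher in siNT than in Mock by 1.22 ± 0.14 (adjusted p = 1.2e-06) and lower in siELMO1 than in Mock (−0.63 ± 0.15, adjusted p = 1.6e-03). BMPR2 was likewise on both sides of Mock, at −0.47 ± 0.08 in siNT (adjusted p = 7.6e-05) and at 0.48 ± 0.08 in siELMO1 (adjusted p = 5.7e-05). SMAD7, at 0.73 ± 0.12 (adjusted p = 5.5e-05), SMAD1, at 0.88 ± 0.11 (adjusted p = 4.4e-06), and ENG, at 0.32 ± 0.09 (adjusted p = 6.2e-03), were higher in siELMO1 than in Mock.

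Some of the 0 h differences were small. SMAD6, not tested, stood at 0.25 ± 0.09 in siELMO1 against Mock, with overlapping libraries. In siNT against Mock, ID3 was at −0.45 ± 0.12 (adjusted p = 3.3e-03), while ID1 at −0.32 ± 0.11 (adjusted p = 0.019) was not called without siNT replicate 3 (adjusted p = 0.05001). SMAD1 at 0.30 ± 0.11 (adjusted p = 0.037) was not called without any of the Mock libraries or siNT replicate 3 (adjusted p from 0.0887 to 0.186), nor with limma-voom, other scalings or no filter (adjusted p from 0.0546 to 0.0967). ACVRL1 at −0.35 ± 0.13 (adjusted p = 0.035) was not called without Mock replicate 3 or siNT replicate 1 or 2 (adjusted p from 0.0714 to 0.109). ENG in siNT (−0.07 ± 0.09, adjusted p = 0.53) and ACVRL1 in siELMO1 (0.01 ± 0.13, adjusted p = 0.95) were not called against Mock, though ENG was in a fit of only these 6 libraries (−0.10, adjusted p = 3.8e-03). Of the 8 members tested, 3 were called higher and 4 lower in siNT against Mock (27.6% and 24.0% of all genes), 5 and 2 in siELMO1 against Mock (27.9% and 22.4%) and 5 and 2 in siELMO1 against siNT (31.3% and 31.3%).

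After 24 h of poly(I:C) SMAD7 differed between every pair of transfections. It was higher than in Mock by 1.78 ± 0.13 in siNT (adjusted p = 9.2e-09) and by 1.13 ± 0.13 in siELMO1 (adjusted p = 2.1e-06), and lower in siELMO1 than in siNT (−0.65 ± 0.12, adjusted p = 2.8e-04). The same 24 h libraries make up the fall by which SMAD6 was chosen, so its differences of 2.10 ± 0.11, 1.41 ± 0.11 and −0.68 ± 0.10 were not tested. In order of level, SMAD6 and SMAD7 were lowest in Mock at 24 h, then in siELMO1 and then in siNT, and no neighbouring pair overlapped. At 0 h the order of SMAD6 from low to high was Mock, siELMO1 and siNT, and the libraries of siELMO1 overlapped those of both.

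ENG was higher than in Mock in siNT (0.40 ± 0.09, adjusted p = 1.2e-03) and in siELMO1 (0.85 ± 0.09, adjusted p = 6.8e-07), and higher in siELMO1 than in siNT (0.45 ± 0.09, adjusted p = 4.3e-04). BMPR2 was higher in siELMO1 than in Mock (0.46 ± 0.08, adjusted p = 1.1e-04) and than in siNT (0.39 ± 0.08, adjusted p = 4.6e-04). ID2 was lower than in Mock in siNT (−0.48 ± 0.14, adjusted p = 7.1e-03) and in siELMO1 (−0.46 ± 0.14, adjusted p = 0.011). ID3 was lower in siNT than in Mock (−0.54 ± 0.11, adjusted p = 7.1e-04) and higher in siELMO1 than in siNT (0.73 ± 0.11, adjusted p = 3.2e-05), and against Mock was called higher in siELMO1 in a fit of only these 6 libraries (0.20, adjusted p = 0.044). SMAD1 in siNT against Mock was at −0.25 ± 0.11 (adjusted p = 0.07). It was called with the replicate number as a block in the fit of all 18 libraries (−0.25, adjusted p = 0.010) and with DESeq2 (adjusted p = 0.044). Leaving out Mock replicate 2 or siNT replicate 3 also gave a call (adjusted p = 0.018 and 0.027).

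ACVRL1 was higher in siELMO1 than in Mock at 24 h by 0.44 ± 0.13 (adjusted p = 0.012) with overlapping libraries, not called without Mock replicate 2 or siELMO1 replicate 3 (adjusted p = 0.0717 and 0.0873) or with only these conditions (adjusted p = 0.0626). It was higher than in siNT by 0.34 ± 0.13 (adjusted p = 0.037), not called without siNT replicate 1 or 2 or siELMO1 replicate 3 (adjusted p from 0.0877 to 0.228), with library totals (adjusted p = 0.0759) or with no filter (adjusted p = 0.0532). SMAD1 in siELMO1 against siNT, at 0.32 ± 0.11 (adjusted p = 0.022), ended without those same 3 libraries (adjusted p from 0.0773 to 0.159). ID1 in siELMO1 against siNT, at −0.29 ± 0.11 (adjusted p = 0.033), was not called without siNT replicate 1 or 3 or siELMO1 replicate 1 or 2 (adjusted p from 0.0529 to 0.121) or with no filter (adjusted p = 0.0867). ID1 in siNT against Mock, at 0.21 ± 0.11 (adjusted p = 0.12), was called without Mock replicate 3 (0.37, adjusted p = 5.5e-03). Of the 8 members tested, 2 were called higher and 2 lower in siNT against Mock (25.2% and 24.9% of all genes), 4 and 1 in siELMO1 against Mock (21.6% and 22%) and 5 and 2 in siELMO1 against siNT (26.0% and 26.5%).

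**Figure D4:**
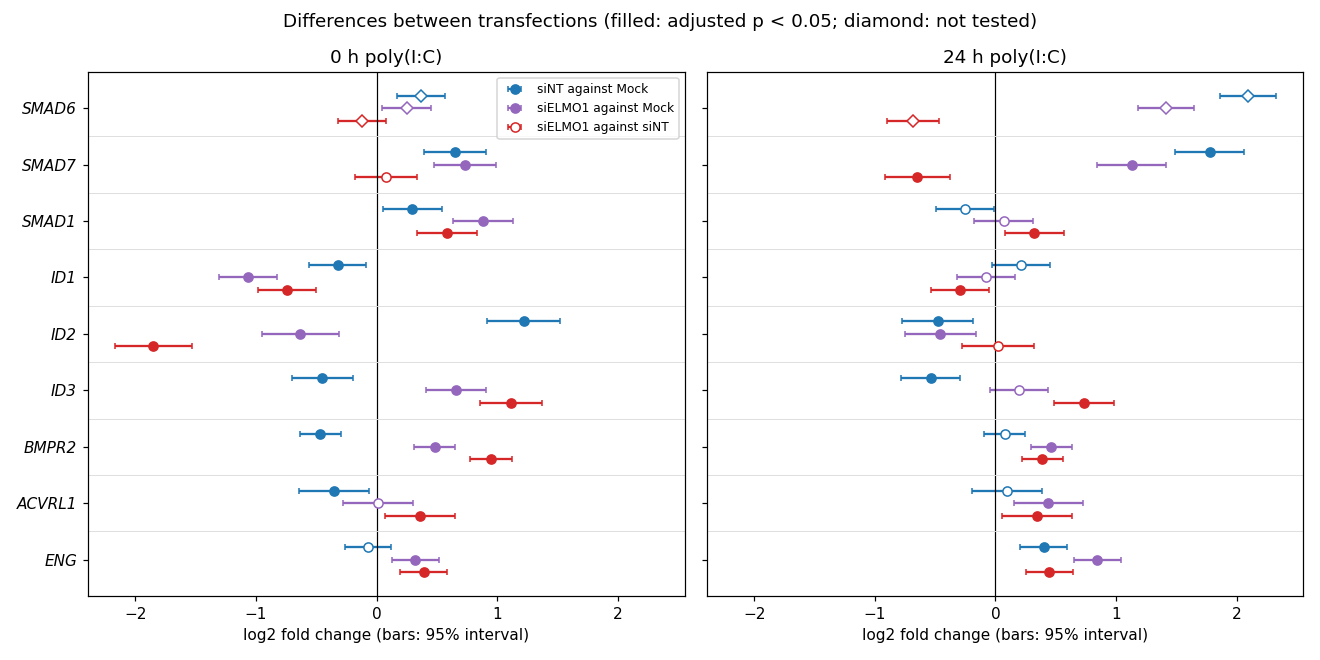
Differences between transfections as log2 fold change (horizontal axes) of 9 members at 0 h (left) and at 24 h of poly(I:C) (right). Bars are 95% intervals and filled points passed an adjusted p under 0.05. SMAD6 (diamonds) was not tested, and its bars are a description only. SMAD6 and SMAD7 lay at 2.10 and 1.78 in siNT against Mock at 24 h, and at 0.37 and 0.65 at 0 h.

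Levels can be set between genes only per length, here as CPM per kilobase summed over transcripts. In Mock at 0 h ENG was at 304 ± 4.95 (SD, n = 3), ID1 at 95.4 ± 2.85, ACVRL1 at 37.8 ± 2.52, ID3 at 19.4 ± 0.899 and BMPR2 at 16.5 ± 0.179. SMAD1 was at 6.82 ± 0.362, SMAD7 at 3.94 ± 0.366, SMAD6 at 3.24 ± 0.231 and ID2 at 2.72 ± 0.389, and the libraries of neighbours in this order overlapped for SMAD6 with ID2. In Mock at 24 h SMAD6 was at 0.337 ± 0.0341 and SMAD7 at 0.893 ± 0.0316, the lowest of the 9, and ID2 at 10.3 ± 1.36 stood above both.

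Other genes of the pathway gave no common direction either. Of 42 further BMP pathway genes, 29 were tested, of which 12 were called higher and 13 lower after poly(I:C) in Mock, 10 and 10 in siNT and 8 and 11 in siELMO1, beside the shares of all genes given above. Their median change was 0.03, −0.09 and 0.01. The intracellular and membrane inhibitors other than SMAD6 and SMAD7 were 6 genes, all tested. Of these 6, 3 were called higher and 2 lower in Mock, 3 and 1 in siNT and 1 and 2 in siELMO1. Genes named here, apart from MSX2, were called with a fold change over 2 in at least 1 comparison of a pair of conditions. They had a mean of at least 1 CPM.

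Among the ligands, 3 of 7 were tested, and 1 was called higher and 2 lower in Mock, 1 and 1 in siNT and 0 and 2 in siELMO1. BMP6, a ligand made by endothelial cells that induces hepcidin in the liver, fell in all 3 transfections, from 69.7 ± 4.22 to 19.8 ± 1.01 CPM in Mock (log2 −1.82 ± 0.06, adjusted p = 5.0e-14), by 0.68 ± 0.06 in siNT (adjusted p = 4.0e-08) and by 1.17 ± 0.06 in siELMO1 (adjusted p = 1.9e-11). BMP6 stood at 130 ± 3.83 CPM in siELMO1 at 0 h, higher than in siNT by 1.10 ± 0.06 (adjusted p = 3.2e-11). GDF6, a ligand of the growth and differentiation factor group, fell in Mock by 1.66 ± 0.16 (adjusted p = 6.3e-08) and by 0.43 ± 0.15 in siELMO1 (adjusted p = 0.019), and was at −0.19 ± 0.16 in siNT (adjusted p = 0.32). GDF6 was at 39.6 ± 2.80 CPM in siELMO1 at 0 h and at 6.75 ± 0.189 in siNT.

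Of the other receptors and co-receptors, 6 of 7 were tested, and 3 were called higher and 2 lower in Mock, 2 and 2 in siNT and 2 and 2 in siELMO1. RGMB, a co-receptor of the repulsive guidance family, rose by 1.40 ± 0.05 in Mock (adjusted p = 1.3e-13), 1.14 ± 0.05 in siNT (adjusted p = 4.1e-12) and 1.34 ± 0.05 in siELMO1 (adjusted p = 4.1e-13). The type I receptor BMPR1B rose from 2.30 ± 0.155 to 7.02 ± 0.627 CPM in Mock (adjusted p = 4.8e-06), by 1.18 ± 0.22 in siNT (adjusted p = 2.3e-04) and by 0.72 ± 0.22 in siELMO1 (adjusted p = 0.010).

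The other intracellular mediators, SMAD5, SMAD9 and SMAD4, were 3 genes, all tested. Of these, 0 were called higher and 2 lower in Mock and in siNT, and 1 and 2 in siELMO1. The receptor-activated SMADs of the BMP branch among them, SMAD9 and SMAD5, fell, while SMAD4 was called higher in siELMO1 only. SMAD9 was at −1.68 ± 0.20 in Mock (adjusted p = 9.8e-07), −0.62 ± 0.19 in siNT (adjusted p = 0.012) and −1.04 ± 0.19 in siELMO1 (adjusted p = 1.8e-04), at mean levels of 1.06 to 3.76 CPM. SMAD5 fell from 134 ± 4.74 to 72.2 ± 2.10 CPM in Mock (adjusted p = 1.5e-10), by 0.64 ± 0.05 in siNT (adjusted p = 2.2e-08) and by 0.16 ± 0.05 in siELMO1 (adjusted p = 0.020), the last with overlapping libraries. SMAD5 was lower in siELMO1 than in siNT at 0 h (−1.36 ± 0.05, adjusted p = 6.8e-13), where SMAD1 was higher.

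Of the 12 secreted antagonists and modulators 7 were tested, with 4 called higher and 2 lower in Mock, 3 and 1 in siNT and 3 and 1 in siELMO1. FST (follistatin), which binds activins and some BMPs, rose from 11.6 ± 0.505 to 127 ± 9.56 CPM in Mock (3.45 ± 0.08, adjusted p = 4.1e-16), by 1.99 ± 0.08 in siNT (adjusted p = 1.6e-12) and by 2.63 ± 0.08 in siELMO1 (adjusted p = 1.7e-14). GREM1, a BMP antagonist, was at 3.65 ± 0.995 CPM in Mock, 0.222 ± 0.179 in siNT and 5.36 ± 0.559 in siELMO1 at 24 h. It was lower in siNT than in Mock (−4.04 ± 0.53, adjusted p = 6.1e-06). That siNT level is under 1 CPM, and GREM1 was picked by its folds in such comparisons. The antagonist NOG (noggin) fell in siELMO1 from 4.66 ± 1.14 to 0.806 ± 0.453 CPM (−2.52 ± 0.47, adjusted p = 2.0e-04), and its values in Mock (−0.98 ± 0.46, adjusted p = 0.077) and siNT (−0.68 ± 0.46, adjusted p = 0.22) were not called.

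Of 7 further target genes 4 were tested, and 1 was called higher and 3 lower in Mock, 1 and 3 in siNT and 1 and 2 in siELMO1. HEY1, a Notch and BMP target of endothelial cells, fell in Mock (−1.20 ± 0.17, adjusted p = 9.8e-06), siNT (−1.01 ± 0.17, adjusted p = 8.9e-05) and siELMO1 (−1.36 ± 0.17, adjusted p = 3.4e-06). ATOH8, a target of ALK1 and BMPR2 signalling, fell by 1.53 ± 0.21 in siNT (adjusted p = 6.7e-06) and by 0.64 ± 0.21 in Mock, with overlapping libraries (adjusted p = 0.012), and was at 0.02 ± 0.20 in siELMO1 (adjusted p = 0.93). The homeobox gene MSX1 rose by 2.36 ± 0.09 in Mock (adjusted p = 1.4e-13), 1.23 ± 0.08 in siNT (adjusted p = 1.4e-09) and 2.03 ± 0.09 in siELMO1 (adjusted p = 1.9e-12). MSX2, of the same family, was at −0.48, −0.38 and −0.52 in Mock, siNT and siELMO1 (adjusted p = 2.5e-03, 0.012 and 1.3e-03).

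**Figure D5:**
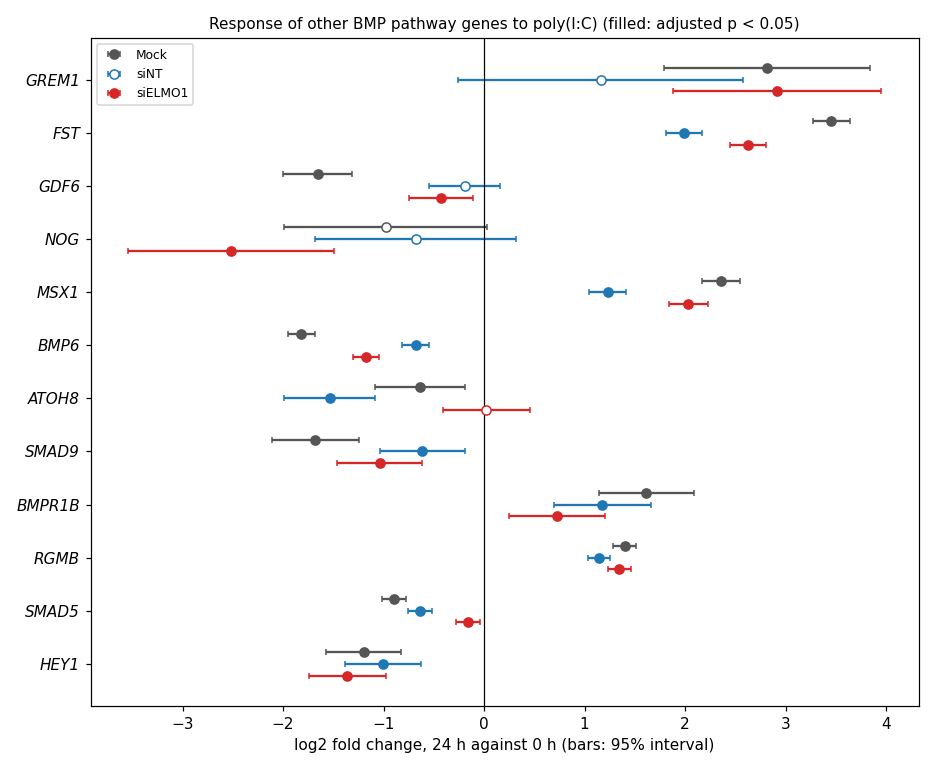
Response to poly(I:C) as log2 fold change, 24 h against 0 h (horizontal axis), of 12 other BMP pathway genes (vertical axis) in Mock, siNT and siELMO1; bars are 95% intervals and filled points passed an adjusted p under 0.05. FST lay at 3.45, 1.99 and 2.63 and BMP6 at −1.82, −0.68 and −1.17 in Mock, siNT and siELMO1.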

How the data were processed

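RNA was sequenced as paired ends of 100 bp from a stranded mRNA kit. The authors aligned the reads to GRCh38 with STAR, annotated them with Gencode v44 and quantified them with StringTie; versions are not given in the sources used here. The deposited matrices hold estimated counts per gene and per transcript, whole numbers derived from coverage and not normalized by the authors, so small values are not whole reads. Here CPM were computed with TMM factors, and a gene was tested where its counts summed to 100 or more and its highest CPM reached 1 (15167 of 62754) with edgeR 4.0.16 in R 4.3.3, two-sided, in 12 comparisons. SMAD6 was left untested in all of them, since it was chosen on these values. On simulated data the test was checked first. The members and gene lists were chosen with earlier results of these data known. Named pathway genes were the 12 with the largest fold among 14 called with a fold over 2 and a mean of at least 1 CPM. MSX2 is not among the 12 and was given beside MSX1. SMAD4, also not among them, was given beside SMAD5 and SMAD9. No exact permutation of 3 against 3 libraries can go under p = 0.1, so single genes were tested in the model across all genes.

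Library totals ran from 40.4 to 73.9 M counts, and 3 counts were used as the limit behind a 0. Groups came from the sample titles. The alternatives were DESeq2 1.42.0, limma-voom (limma 3.58.1), TMM replaced by library totals or by upper-quartile factors, filterByExpr or no filter, only the conditions compared, the replicate number as a block, each library left out, and, added after seeing the data, siELMO1 at 0 h held by replicate 1 alone; that lone library is then assumed to vary like the other conditions. Deviations of libraries with the same replicate number correlated across 9644 genes with a median r of 0.028 over 45 pairs, from −0.249 to 0.453, with 13 over 0.1. In siNT against Mock at 24 h each of the 3 pairs exceeded 0.1 (0.250, 0.288 and 0.335). The pairs of siELMO1 at 0 h with siNT at 24 h also exceeded 0.1. The labels give the replicate number only and do not say that it marks a pairing. The blocked fit took an effect per replicate number over all 18 libraries. Its value stands beside results that compare the 24 h libraries of siNT and Mock where it changes a call.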

Additional observations from a re-analysis of the deposited data

Results flagged for a closer look

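The test of the difference between responses to poly(I:C) was passed by 14 of 24 combinations of a member and a pair of transfections. Of all genes, 15% were called higher and 16% lower for siNT minus Mock. The shares were 13.8% and 14.6% for siELMO1 minus Mock, and 16.7% and 17.8% for siELMO1 minus siNT. Each value below is a difference of log2 changes with its edgeR adjusted p, and SMAD6 was not tested. For siNT minus Mock it was 1.13 for SMAD7 (adjusted p = 9.5e-05), −0.55 for SMAD1 (adjusted p = 0.014), 0.54 for ID1 (adjusted p = 0.013), −1.70 for ID2 (adjusted p = 4.1e-06), 0.54 for BMPR2 (adjusted p = 1.1e-03) and 0.47 for ENG (adjusted p = 8.6e-03). The SMAD1 value was not called without Mock 24 h replicate 1 (−0.47, adjusted p = 0.05003).

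For siELMO1 minus Mock it was −0.81 for SMAD1 (adjusted p = 1.0e-03), 0.98 for ID1 (adjusted p = 1.5e-04), −0.46 for ID3 (adjusted p = 0.037) and 0.53 for ENG (adjusted p = 4.6e-03). The ID3 value was not called without any 1 of 9 of the 12 libraries (adjusted p from 0.0519 to 0.102); it was also not called with library totals, filterByExpr or no filter (adjusted p = 0.0868, 0.0519 and 0.132), and was still called without siELMO1 0 h replicate 2 or 3 or Mock 24 h replicate 1.

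For siELMO1 minus siNT it was −0.73 for SMAD7 (adjusted p = 2.9e-03), 0.45 for ID1 (adjusted p = 0.034), 1.87 for ID2 (adjusted p = 1.1e-06) and −0.56 for BMPR2 (adjusted p = 7.2e-04). The ID1 value was not called without any 1 of 8 of the 12 libraries (adjusted p from 0.0526 to 0.0906), all but siELMO1 0 h replicate 1, siNT 24 h replicate 1 and siELMO1 24 h replicates 1 and 2, nor with library totals (adjusted p = 0.0616). Responses that share Mock or siNT libraries are not independent of each other.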

How the results depend on the processing

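Of the 96 tests of a member in a comparison, 72 were called. Over the comparisons, 13.8% to 31.3% of all genes were called higher and 14.6% to 31.3% lower. Of the 72 calls, 56 were in the same direction under all the alternatives listed, replicate 1 alone aside, and with every library left out in turn. In SMAD7 all 3 responses to poly(I:C) were among these, as in ID3, and the fall of SMAD6, not tested, ran over the settings other than single libraries left out from −3.32 to −3.20 in Mock, −1.52 to −1.47 in siNT and −2.20 to −2.01 in siELMO1. Over the members, 5 were called higher after poly(I:C) in siELMO1, and 3 with library totals, with upper-quartile factors or with only the conditions compared. For siELMO1 minus Mock 2 members were called lower, and 1 with library totals, with filterByExpr or with no filter. For siELMO1 minus siNT 2 members were called higher, and 1 with library totals. In siELMO1 against siNT at 24 h 2 members were called lower, and 1 with no filter. With single libraries left out, members called after poly(I:C) in siELMO1 ran from 3 to 5 higher and from 1 to 3 lower, and those called higher in siELMO1 against siNT at 24 h from 3 to 5 and those called lower there from 1 to 2. Members called lower ran from 1 to 2 for siNT minus Mock and for siELMO1 minus Mock, and members called higher from 1 to 2 for siELMO1 minus siNT. With siELMO1 at 0 h held by replicate 1 alone, 2 members were called higher and 1 lower after poly(I:C) in siELMO1, 3 higher in siELMO1 against siNT at 0 h and 1 higher for siELMO1 minus siNT. The cause of these changes was not tested; this last alternative rests on fewer libraries.

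Values that changed sign were not called under the main settings. ACVRL1 in siELMO1 against Mock at 0 h was −0.07 with library totals, −0.0012 with upper-quartile factors, −0.025 with no filter and −0.030 with only the conditions compared, and −0.055 to 0.077 with single libraries left out. ID2 in siELMO1 against siNT at 24 h was −0.023 with library totals and −0.073 to 0.082 with single libraries left out. The BMPR2 difference for siELMO1 minus Mock was 0.0037 with DESeq2, 0.046 with library totals, 0.030 with no filter and 0.19 with replicate 1 alone, and −0.094 to 0.047 with single libraries left out. That of ACVRL1 for siELMO1 minus siNT was 0.014 with no filter and −0.16 to 0.061 with single libraries left out. SMAD6 in siELMO1 against siNT at 0 h was 0.044 with replicate 1 alone. Leaving out single libraries also gave −0.015 to 0.34 for ACVRL1 after poly(I:C) in Mock, −0.067 to 0.28 for ACVRL1 in siNT against Mock at 24 h, −0.061 to 0.16 for SMAD1 and −0.18 to 0.078 for ID1 in siELMO1 against Mock at 24 h, −0.23 to 0.015 for ID3 for siNT minus Mock and −0.027 to 0.13 for ENG for siELMO1 minus siNT.

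With the replicate number as a block, the call changed in 3 of the 96 tests. The SMAD1 value in siNT against Mock at 24 h and the ACVRL1 value for siNT minus Mock are given above. The ACVRL1 difference of 0.43 for siELMO1 minus Mock (adjusted p = 0.022) was also called. Among the conditions of that difference, no comparison had an r over 0.1 in every pair of the same number. Library totals in place of TMM moved the median change of all genes by −0.12 in Mock after poly(I:C). With no filter BMP4 was tested among 37970 genes and was called lower after poly(I:C) in siELMO1 (adjusted p = 0.039) and not in Mock (adjusted p = 0.072) or siNT (adjusted p = 0.37). Depth limits BMP4, and the 73 to 96 counts of SMAD6 in Mock at 24 h.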
